A study of Mus musculus with 35 samples.

Results

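The insulin-like growth factor (IGF) genes described here are 10 genes taken by name as members of the family: the ligand Igf1, the receptors Igf1r and Insr, the binding proteins Igfbp2, Igfbp3, Igfbp4, Igfbp5, Igfbp6 and Igfbp7, and the related secreted protein Igfbpl1. They are 10 of the 53465 genes in the bulk table and 10 of the 21548 in the single-cell tables, and all 10 reached the minimum mean of 10 normalized counts that was set for testing. The data come from dissociated brains of wild-type mice at embryonic day E14.5, which were sorted by FACS into neural, mural, endothelial and microglial cells. For bulk RNA-seq, each of 3 brains gave 1 library per population, 12 in all. The neural libraries are called N-340, N-343 and N-346 here, and Mu, Ec and Mi stand likewise for the mural, endothelial and microglial ones, with 1 number for the libraries of 1 brain. Values of the 3 libraries are given in that order. For single-cell RNA-seq, single cells of the same 4 populations were sorted into the wells of 3 wild-type plates, and a well was kept with over 1500 transcripts.

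Neural cells were the cells negative for every marker used, so that this group holds progenitors and young neurons together. Mural cells, the pericytes and smooth muscle cells around vessels, were high for PDGFRβ, and endothelial cells were positive for PECAM1 and CD102. Microglia had medium CD45 with CD11b in the bulk sort, and medium CD45 with CD41 in the well labels. The neural bulk libraries were made with another RNA kit and another library kit than the low-input libraries of the other 3 populations, so that kit and population cannot be told apart in any comparison of neural with the rest. No treatment or genotype other than wild type enters the comparisons; the Mof knockout plates of the series carry no sort gate and were not used here.

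IGF ligands are small secreted proteins, related to insulin, that promote growth, survival and differentiation. They act through the receptor tyrosine kinase IGF1R and, with lower affinity, the insulin receptor. Binding proteins hold most of the ligand outside cells, where they limit, carry or release it, and proteases free the ligand by cutting them. In the brain the pathway supports progenitor division, neuronal survival and vessel growth, and microglia are a known source of IGF1.

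The promoters of the 4 binding protein genes that were higher in endothelial cells in the bulk libraries are shown, to let the sequences before their starts be compared. The 250 bases before the start in RefSeq (GRCm38.p6) are printed 5′ to 3′ on the strand of the gene. Capitals mark 2 motifs searched on both strands. One is GGGCGG, known as the GC box. The other is TATAAA, known as the TATA box. These windows lie at chr1:72824230-72824479 on the plus strand for Igfbp2, at chr11:7213924-7214173 on the minus strand for Igfbp3, at chr11:99040994-99041243 on the plus strand for Igfbp4 and at chr5:77408046-77408295 on the minus strand for Igfbp7.
Igfbp2: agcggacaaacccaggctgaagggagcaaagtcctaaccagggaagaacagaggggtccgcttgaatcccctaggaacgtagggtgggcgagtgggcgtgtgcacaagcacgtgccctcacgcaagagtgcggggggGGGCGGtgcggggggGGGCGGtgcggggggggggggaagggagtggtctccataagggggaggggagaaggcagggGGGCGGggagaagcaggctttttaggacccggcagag
Igfbp3: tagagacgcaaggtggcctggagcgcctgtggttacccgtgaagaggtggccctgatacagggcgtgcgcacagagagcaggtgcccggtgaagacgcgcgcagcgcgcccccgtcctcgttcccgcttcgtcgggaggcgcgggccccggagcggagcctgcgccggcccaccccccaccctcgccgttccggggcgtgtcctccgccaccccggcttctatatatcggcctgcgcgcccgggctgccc
Igfbp4: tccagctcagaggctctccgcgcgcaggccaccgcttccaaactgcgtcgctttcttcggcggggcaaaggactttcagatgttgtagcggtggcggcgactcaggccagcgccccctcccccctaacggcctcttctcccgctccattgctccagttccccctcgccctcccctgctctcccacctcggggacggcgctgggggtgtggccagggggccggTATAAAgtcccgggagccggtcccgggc
Igfbp7: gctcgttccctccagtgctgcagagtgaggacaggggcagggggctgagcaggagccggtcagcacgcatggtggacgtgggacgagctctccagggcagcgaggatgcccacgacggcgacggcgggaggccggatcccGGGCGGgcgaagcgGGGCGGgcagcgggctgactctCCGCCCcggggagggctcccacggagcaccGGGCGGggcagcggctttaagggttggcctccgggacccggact
The GC box was found 3 times in the Igfbp2 window, 4 times in that of Igfbp7 and not in the other 2. The TATA box was found once, in the Igfbp4 window. No match overlapped another. Among all 32851 RefSeq windows of the same length, 32.7% hold the GC box letters and 12.4% the TATA box letters. The 4 windows held 14, 32, 22 and 26 CpG dinucleotides in the order printed, against a median of 6 over all windows. In all, 8 of the 10 genes had an entry, of which 3 held a GC box and 2 a TATA box. Insr and Igfbpl1 had no entry in the set of windows used here. A match of these letters is a description of the sequence and not of a site in use.

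Sequencing depth was high in the bulk libraries, from 17638358 to 98414914 reads counted in genes. In the single-cell data 686 cells were kept, namely 123 of 197 neural, 210 of 295 mural, 225 of 368 endothelial and 128 of 134 microglial wells, with median depths of 7717, 6885, 6408 and 10761 transcripts. Plate 3 gave only 14, 10, 13 and 6 of them. The labels held against the mural, endothelial and microglial marker lists. The summed normalized counts of 6 mural markers ran from 698561 to 749860 in mural libraries and to no more than 6965 elsewhere. Those of 6 endothelial markers ran from 152063 to 181424 against at most 1522.7. Those of 6 microglial markers ran from 183035 to 213836 against at most 111. The young neuron list, of 8 genes, ran from 105672 to 114401 in neural libraries and from 2226 to 5261 in the others. The progenitor list, also of 8 genes, was not particular to neural libraries. It ran from 46017 to 50285 there, 48045 to 68026 in mural, 37329 to 44731.5 in endothelial and 13900 to 14603 in microglial libraries. The neural list summed to 33442 to 60710 in mural libraries, mostly from Sox11 and Fabp7, and red cell markers to 8138 to 10990 in neural and 10463 to 28481 in endothelial libraries, against at most 1701 in the others; their part in the results was not tested. Choroid plexus markers summed to at most 353. In bulk samples, fewer cells of a type and less RNA per cell cannot be told apart.

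In the bulk libraries each gene was read as normalized counts. A difference is that of log2(normalized count + 1) between 1 population and the mean of the other 3. It was tested by limma over 19765 genes with Benjamini-Hochberg adjustment. Each gene has 1 estimate of the spread, shared by all 12 libraries and every comparison. A pair of populations can therefore miss the threshold although its own libraries do not overlap. Likewise, 1 population near 0 lowers the mean that the rest are compared with, so that the rest can be called higher. Of the 10 genes, 6 were higher in endothelial cells, 4 in neural cells, 3 in mural cells and 1 in microglia. Over all genes tested 19.7% were higher in endothelial, 32.9% in neural, 19.3% in mural cells and 23.4% in microglia. In the other direction, 8 of 10 were lower in microglia, 4 in mural, 2 in neural and 1 in endothelial cells, where 22.3%, 22.7%, 31.2% and 22.4% of all genes were lower. The median difference of the 10 genes was 2.07 in endothelial cells, 0.58 in neural cells, −1.19 in mural cells and −1.79 in microglia, with medians of all genes between −0.12 and 0.09. For 5 genes, all 3 libraries of 1 population lay above the 9 others: Igf1 in microglia, Igfbp3 and Igfbp4 in endothelial cells, and Igfbp5 and Igfbpl1 in neural cells. Over all genes tested this held for 50.2%.

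**Figure D1:**
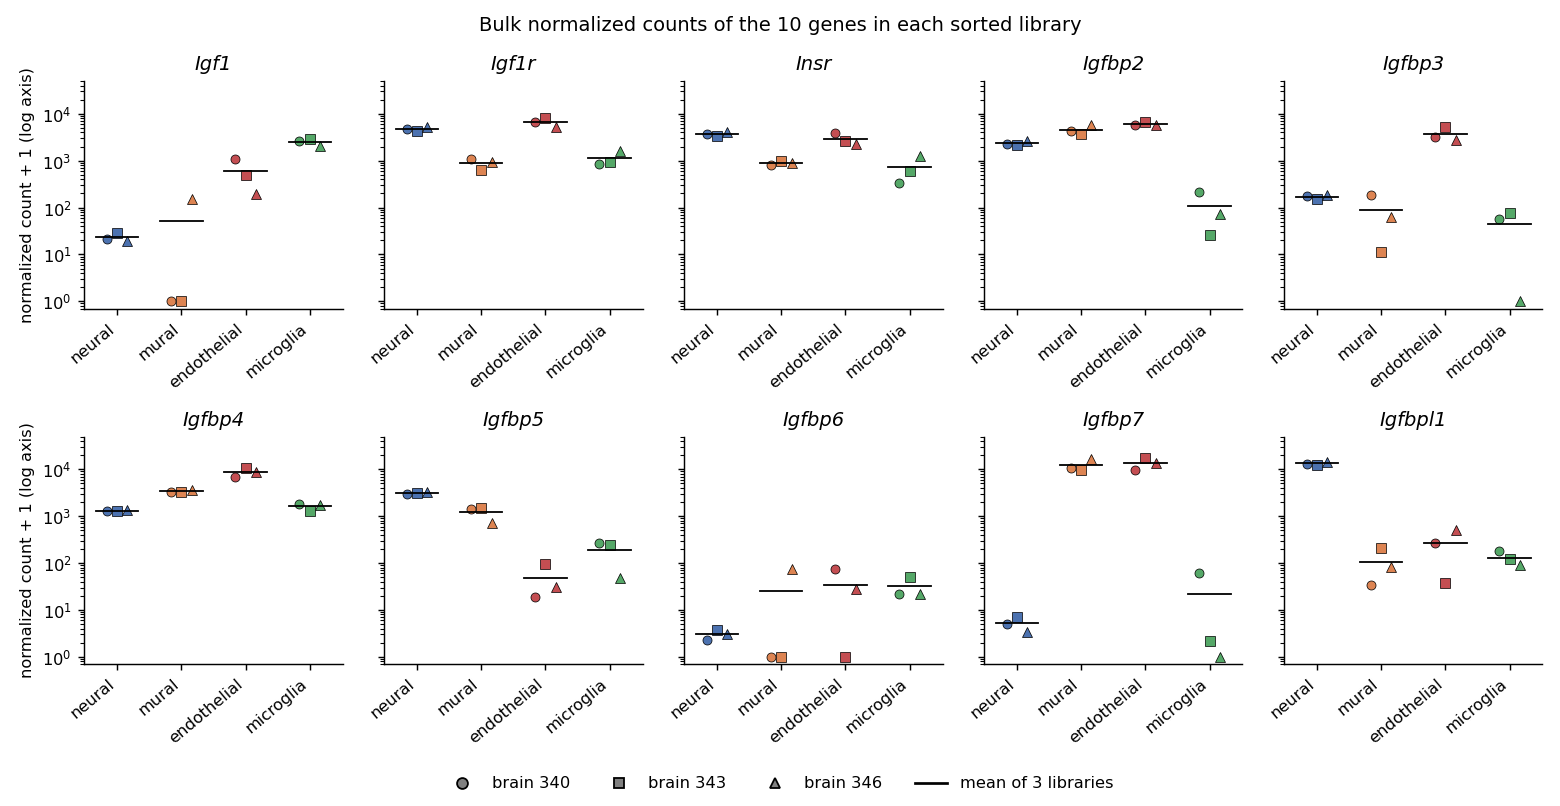
Normalized counts plus 1 on a log axis for each of the 10 genes in each of the 12 bulk libraries, by sorted population on the x axis. Points are libraries, with the shape giving the brain, and the line is the mean of 3. Igfbp7 separates the 2 vascular populations from the rest, Igfbpl1 the neural cells, Igf1 the microglia and Igfbp3 the endothelial cells.

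The ligand Igf1 (ENSMUSG00000020053, chr10:87858265-87937042) was highest in microglia. It read 2642, 2870 and 2076 normalized counts in Mi-340, Mi-343 and Mi-346, and 1107, 493 and 198 in the endothelial libraries of the same brains. Neural cells read 20.0, 27.7 and 18.5, and mural cells 0, 0 and 154. Every microglial library was above every endothelial library, and the mural mean rested on the library Mu-346 alone.

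Against the mean of the other 3, Igf1 was higher in microglia by 6.01 ± 1.29 (log2, SE, n = 3 libraries against 9, limma adjusted p = 0.0031) and lower in mural cells by a difference of −5.81 ± 1.29 (adjusted p = 0.0044). The endothelial difference of 2.82 and the neural one of −3.03 did not pass (adjusted p = 0.10 and 0.060). In the order of means, microglia and endothelial cells did not differ beyond the spread (log2 difference 2.39, adjusted p = 0.29), endothelial cells were above mural cells (6.47, adjusted p = 0.011), and mural and neural cells did not differ beyond it (−2.08 on the log scale, against the order of the means, adjusted p = 0.29). Border macrophage markers were also found in the microglial libraries: the sum of 5 was 9005 to 11764 there, of which Mrc1 made 7987 to 10492, against at most 1041 elsewhere. In microglia Pf4 read 485 to 975 (at most 82.3 elsewhere), Lyve1 247 to 527 (at most 268 elsewhere), Cd163 0 to 61.7 and Cbr2 3.78 to 22.5; the part of these cells in the Igf1 level was not tested.

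The mural call was lost with edgeR on the recovered reads (−2.63, adjusted p = 0.16) and with DESeq2 (−2.64, adjusted p = 0.13), and without the brain of N-340 (−4.40, adjusted p = 0.10) or that of N-343 (−4.50, adjusted p = 0.12). The neural difference passed with a pseudocount of 10 (−3.31, adjusted p = 0.0031), with edgeR (−4.25, adjusted p = 0.030) and with DESeq2 (−4.29, adjusted p = 0.0056). Without the mural library Mu-346 the endothelial difference passed (3.63, adjusted p = 0.00036), and so did the neural one (−2.22, adjusted p = 0.0031), which also passed without the mural library Mu-340 (−3.44, adjusted p = 0.033) or Mu-343 (−3.44, adjusted p = 0.032). Without the whole brain of N-346 both passed as well (4.18 and −2.37, adjusted p = 0.0026 and 0.0092), and mural cells were below neural cells (−4.62, adjusted p = 0.0021). Without Mu-346 microglia were also above endothelial cells (2.39, adjusted p = 0.011) and mural below neural cells (−4.51, adjusted p = 0.00035). The step from endothelial to mural cells was lost with edgeR (3.5, adjusted p = 0.12) and DESeq2 (3.55, adjusted p = 0.11), and without the brain of N-340 (4.65, adjusted p = 0.19) or that of N-343 (5.24, adjusted p = 0.17). The microglial call was lost without the brain of N-343 (5.58, adjusted p = 0.057).

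Single cells gave the same leading population. Igf1 had at least 1 transcript in 30 of 128 microglia, or 23.4% (exact 95% interval 16.4 to 31.7), in 18 of 225 endothelial cells (8.0%), in 2 of 123 neural cells (1.63%) and in 3 of 210 mural cells (1.43%). After thinning to 1500 transcripts per cell the shares were 7.03%, 2.22%, 0.813% and 0.952%. Summed by plate, microglia held 102, 38.9 and 0 transcripts in CPM (counts scaled to an equal total per sum) on plates 1, 2 and 3, the last from 6 cells, and endothelial cells 11.5, 15.7 and 28.5. The microglial difference was 4.07 ± 0.45 (edgeR quasi-likelihood test, adjusted p = 2.3e-11), and 1 cell held 22.1 of the 94.1 microglial transcripts. Neural cells were lower (−2.67, adjusted p = 0.021), which was lost with DESeq2 (−2.46, adjusted p = 0.15).

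The receptor genes were led by endothelial and neural cells. Igf1r (ENSMUSG00000005533, chr7:67952827-68233668), the tyrosine kinase that binds both IGF ligands, read 6570.3, 8161 and 5157 normalized counts in the endothelial libraries and 4781, 4209 and 5338 in the neural ones. Mural cells read 1095, 632 and 947, and microglia 833, 953 and 1630.3. Endothelial and neural libraries overlapped, and both stood above all mural and microglial libraries.

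Igf1r was higher in endothelial cells (1.98 ± 0.23, limma adjusted p = 7.4e-05) and neural cells (1.37 ± 0.23, adjusted p = 0.00039), and lower in mural cells (−1.89, adjusted p = 9.9e-05) and microglia (−1.46, adjusted p = 0.00041). The pair of endothelial and neural cells did not differ beyond the spread (0.45, adjusted p = 0.19), nor did microglia and mural cells (0.33, adjusted p = 0.40), whereas neural cells were above microglia by 2.12 (adjusted p = 7.8e-05). In single cells, an Igf1r transcript was found in 76.0% of endothelial cells (171 of 225), 68.3% of neural cells, 33.8% of mural cells and 32.0% of microglia, and after thinning in 42.7%, 29.3%, 9.52% and 7.03%. The summed levels gave differences of 1.93, 0.95, −1.36 and −1.52 in that order, and all 4 passed (edgeR adjusted p from 1.5e-10 to 0.0011). Without plate 1 the neural call (0.96, adjusted p = 0.082) and the mural call (−1.31, adjusted p = 0.050) did not pass.

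Insr (ENSMUSG00000005534, chr8:3122061-3279617) encodes the insulin receptor, which can also pair with IGF1R. It read 3720.4, 3389 and 4025 normalized counts in neural libraries and 3815, 2681 and 2291 in endothelial libraries. Mural cells read 799.6, 998 and 892, and microglia 329, 593 and 1256. Neural and endothelial libraries overlapped again, and all of them lay above the mural and microglial libraries, which overlapped too.

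The Insr difference was 1.66 ± 0.32 in neural cells (limma adjusted p = 0.00093), 1.17 in endothelial cells (adjusted p = 0.013), −1.07 in mural cells (adjusted p = 0.020) and −1.75 in microglia (adjusted p = 0.0010). Only the step from endothelial to mural cells passed among neighbours (1.68, adjusted p = 0.0084), and neural and endothelial cells differed by 0.37 (adjusted p = 0.44). The endothelial call did not pass without the endothelial library Ec-340 (0.96, adjusted p = 0.067), nor the mural call without the mural library Mu-340 (−0.99, adjusted p = 0.073) or Mu-346 (−1.07, adjusted p = 0.056). Without the brain of N-343 the endothelial call (1.21, adjusted p = 0.11), the mural call (−1.20, adjusted p = 0.12) and the step from endothelial to mural cells (1.81, adjusted p = 0.096) were lost, and without that of N-340 the endothelial call (0.78, adjusted p = 0.093). Without the microglial library Mi-346 mural cells were above microglia (1.01, adjusted p = 0.020).

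Insr was called in neural cells in the bulk libraries but not in single cells. It was found in 47.6% of endothelial cells, 30.9% of neural cells, 26.6% of microglia and 13.8% of mural cells, or 14.7%, 9.76%, 5.47% and 2.38% after thinning. Endothelial cells held 107, 135 and 42.7 CPM on the 3 plates, neural cells 46.5, 54.4 and 21.9. The endothelial difference was 1.82 ± 0.25 (edgeR adjusted p = 3.4e-08), and that of neural cells −0.02 ± 0.35 (adjusted p = 0.98), where the bulk libraries gave 1.66. Mural cells were lower (−1.25, adjusted p = 0.0028), which was lost with DESeq2 (−1.33, adjusted p = 0.16) and without plate 1 (−1.55, adjusted p = 0.099) or plate 2 (−1.13, adjusted p = 0.33). Without plate 3 the microglial difference of −0.55 passed (−0.80, adjusted p = 0.020). Per length and depth (FPKM), the ratio of Igf1r to Insr was 1.91 ± 0.54 (SD, n = 3) in endothelial cells, 1.48 ± 0.53 in microglia, 1.05 ± 0.034 in neural cells and 0.836 ± 0.302 in mural cells. The 3 endothelial ratios, from 1.41 to 2.49, lay above the 3 neural ones, from 1.02 to 1.09, and overlapped those of microglia.

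Summed over the 6 binding proteins and Igfbpl1, the level was 585 ± 155 FPKM (SD, n = 3) in endothelial cells, 509 ± 159 in mural cells, 248 ± 13.0 in neural cells and 16.8 ± 2.99 in microglia. By library the sum was 444, 752 and 560 in endothelial cells, 444, 394 and 690 in mural cells, 245, 237 and 262 in neural cells, and 20.1, 14.2 and 16 in microglia. The vascular libraries overlapped each other, all of them lay above the neural libraries, and the neural libraries lay above the microglial ones. Igfbp7 made 63.4% of the endothelial and 74.5% of the mural sum, Igfbpl1 65.6% of the neural sum and Igfbp4 66.9% of the microglial sum.

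**Figure D2:**
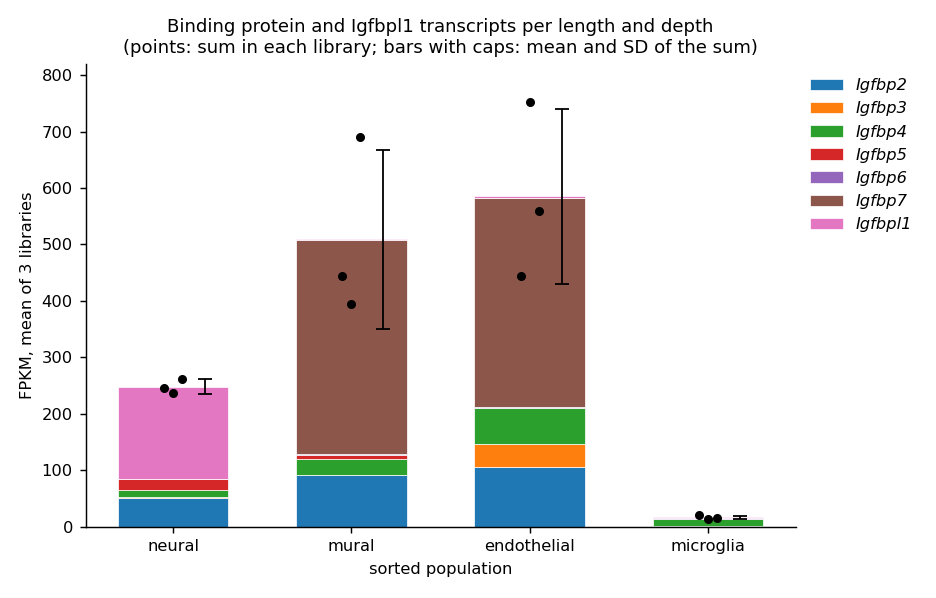
Stacked bars of the mean FPKM (reads scaled by exon length and depth, 3 libraries) of 6 binding proteins and Igfbpl1 in each sorted population, with the sum in each library as points and its mean and SD beside the bar. The sum was 585 in endothelial and 509 in mural cells, mostly Igfbp7, 248 in neural cells, mostly Igfbpl1, and 16.8 in microglia.

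Igfbp7 (ENSMUSG00000036256, chr5:77349240-77408041) encodes a protein of the vessel wall matrix that binds IGFs weakly. It read 9815, 17843 and 13589 normalized counts in endothelial libraries and 10755, 9921 and 16702 in mural libraries. Neural cells read 4.01, 6.09 and 2.38, and microglia 60.6, 1.19 and 0. The 6 vascular libraries overlapped with each other and lay far above the other 6.

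Igfbp7 was higher in endothelial (7.63 ± 0.96, limma adjusted p = 0.00012) and mural cells (7.44 ± 0.96, adjusted p = 0.00014), lower in neural cells (−7.57, adjusted p = 4.9e-05) and microglia (−7.50, adjusted p = 8.4e-05), and endothelial and mural cells differed by 0.14 ± 1.17 (adjusted p = 0.96). In single cells a transcript was found in 91.9% of mural cells (193 of 210) and 91.6% of endothelial cells (206 of 225), and in 85.2% and 72.9% after thinning. The mural plates held 1734, 1880.4 and 1210.2 CPM and the endothelial plates 1600.3, 1266 and 684. A transcript was also found in 19.5% of neural cells and 23.4% of microglia, at 24.9 and 25.5 CPM, with at most 2 in a cell. The bulk libraries of these populations read at most 60.6, in Mi-340, and these shares are not read as expression here.

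Igfbp3 (ENSMUSG00000020427, chr11:7206086-7213923), the main IGF carrier of adult blood, was an endothelial gene here. It read 3251, 5228 and 2802 normalized counts in endothelial libraries and 171, 154.5 and 185 in neural libraries. Mural cells read 185, 10.3 and 62, and microglia 55.9, 75.9 and 0. All endothelial libraries stood above the other 9, and the endothelial cells held 92.6% of the summed means.

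The endothelial difference of Igfbp3 was 6.12 ± 1.2 (limma adjusted p = 0.0021), that of microglia −4.27 (adjusted p = 0.014), and those of mural (−2.09) and neural cells (0.24) did not pass (adjusted p = 0.19 and 0.87). Among neighbours, endothelial cells were above neural cells by 4.41 (adjusted p = 0.024), and the rest did not differ beyond the spread. That step was lost without the neural library N-340 (4.41, adjusted p = 0.059), N-343 (4.34, adjusted p = 0.061) or N-346 (4.47, adjusted p = 0.057) and without the endothelial library Ec-343 (4.14, adjusted p = 0.064), the brain of N-340 (4.49, adjusted p = 0.11) or that of N-343 (4.08, adjusted p = 0.10). The microglial call was lost without the brain of N-340 (−4.88, adjusted p = 0.060) or that of N-346 (−2.25, adjusted p = 0.14). Without the microglial library Mi-346, which held no read, the mural difference passed (−2.76, adjusted p = 0.011), as it did with a pseudocount of 10 (−2.15, adjusted p = 0.029). In single cells it was found in 22.2% of endothelial cells (50 of 225), 3.25% of neural cells, 0.476% of mural cells, and in 0 of 128 microglia. At 3 cells, the floor for a count of 0, up to 2.34% of microglia could hold a transcript, and the exact 95% upper limit is 2.84%. Both limit cells with a transcript and not cells that express the gene. After thinning the endothelial share was 6.67%. The endothelial plates held 57.3, 140.0 and 0 CPM, the last from 13 cells, and 1 cell held 26.1 of the 144 endothelial transcripts. With at most 6.64 CPM in any other sum, the gene did not pass the filter of the single-cell test.

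Igfbp4 (ENSMUSG00000017493, chr11:99041244-99054392), which mostly restrains IGF action, was found in every population and was highest in endothelial cells. It read 6774, 10496 and 8915 normalized counts in endothelial libraries, 3339, 3311 and 3543 in mural libraries, 1779, 1317 and 1770.1 in microglia and 1293, 1269 and 1338 in neural cells. Endothelial, mural and microglial libraries did not overlap, and microglia overlapped with neural cells.

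Igfbp4 differed by 2.16 ± 0.14 in endothelial cells (limma adjusted p = 1.1e-06), −1.06 in microglia (adjusted p = 0.00011) and −1.47 in neural cells (adjusted p = 6.0e-06). Endothelial cells were above mural cells by 1.34 (adjusted p = 0.00021) and mural cells above microglia by 1.08 (adjusted p = 0.00051), while microglia and neural cells did not differ beyond the spread (0.31, adjusted p = 0.15), except with quantile normalization (0.59, adjusted p = 0.010). The mural difference of 0.38 lay at the threshold (adjusted p = 0.053) and passed with quantile normalization (0.53, adjusted p = 0.0094), edgeR (0.40, adjusted p = 0.046), DESeq2 (0.37, adjusted p = 0.043) and a minimum mean of 100 (adjusted p = 0.043). It also passed without the endothelial library Ec-340 (0.32, adjusted p = 0.047) or Ec-343 (0.42, adjusted p = 0.022), and without the microglial library Mi-340 (0.40, adjusted p = 0.048) or Mi-346 (0.40, adjusted p = 0.049). Single cells showed a transcript in 74.7% of endothelial cells, 71.4% of mural cells, 53.1% of microglia and 21.1% of neural cells, or 42.7%, 36.2%, 14.8% and 5.69% after thinning. On the 3 plates, microglia held 138, 138 and 78.8 CPM and neural cells 33.2, 47.3 and 43.8, so that these populations did not overlap. The single-cell difference was 1.79 in endothelial cells, 1.0 in mural cells, −0.10 in microglia and −2.69 in neural cells, of which all but the microglial one passed (edgeR adjusted p from 1.4e-08 to 0.0016 for the vascular gates, 1.8e-09 for neural cells and 0.82 for microglia). Without plate 1 (1.09, adjusted p = 0.058) or plate 2 (0.94, adjusted p = 0.12) the mural call did not pass.

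Igfbp2 (ENSMUSG00000039323, chr1:72824503-72852474), a main binding protein of embryonic brain, was shared by 3 populations. It read 5633, 6785 and 5696 normalized counts in endothelial libraries, 4191, 3711 and 5835 in mural libraries, and 2318, 2187 and 2682 in neural libraries. Microglia read 216, 24.9 and 71.8. The vascular libraries overlapped, all of them lay above the neural ones, and microglia lay below all others.

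The Igfbp2 difference was −5.76 ± 0.47 in microglia (limma adjusted p = 2.5e-06), 2.70 in endothelial cells (adjusted p = 0.00098), 2.14 in mural cells (adjusted p = 0.0039) and 0.92 in neural cells (adjusted p = 0.10). Without the microglial library Mi-340 the neural difference passed (1.18, adjusted p = 0.0045), and without the brain of N-346 the mural call was lost (1.96, adjusted p = 0.093). Neural cells were above microglia by 5.01 (adjusted p = 2.3e-05), and endothelial, mural and neural cells did not differ from their neighbours beyond the spread (adjusted p = 0.63 and 0.20). The step from mural to neural cells, of 0.91, passed without the microglial library Mi-340 (adjusted p = 0.042) or Mi-343 (adjusted p = 0.049). In single cells a transcript was found in 47.1% of mural, 43.6% of endothelial and 40.7% of neural cells, whose intervals overlap, and in 0 of 128 microglia, the deepest cells. The single-cell difference was 3.12 in mural, 2.96 in endothelial and 2.40 in neural cells (edgeR adjusted p from 5.5e-09 to 3.8e-05). After thinning these shares were 16.2%, 12.9% and 9.76%. Against the floor of 3 transcripts over all microglia, the mural level of 122 CPM was at least 55.7-fold higher.

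Igfbp5 (ENSMUSG00000026185, chr1:72857932-72874884) lies 5457 bases from Igfbp2, on the other strand, and differed from it in pattern. It encodes a binding protein that is kept in the matrix. It read 2957, 3094 and 3365 normalized counts in neural libraries and 1446, 1505 and 712 in mural libraries. Microglia read 269.8, 238 and 46.6, and endothelial cells 17.7, 92.3 and 30.2. The neural libraries lay above all others and the mural libraries above the microglial and endothelial ones.

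The Igfbp5 difference was 4.08 ± 0.58 in neural cells (limma adjusted p = 0.00012), 2.16 in mural cells (adjusted p = 0.012), −1.83 in microglia (adjusted p = 0.025) and −4.42 in endothelial cells (adjusted p = 0.00017). Neural and mural cells did not differ beyond the spread (1.44, adjusted p = 0.11), mural cells were above microglia (2.99, adjusted p = 0.0065), and microglia and endothelial cells differed by 1.94 (adjusted p = 0.059). The last step passed with the brain as a replicate block (adjusted p = 0.044), a minimum mean of 100 (adjusted p = 0.049) and DESeq2 (1.98, adjusted p = 0.011), and without the endothelial library Ec-343 (2.59, adjusted p = 0.016), the microglial library Mi-346 (2.75, adjusted p = 0.0067) or the brain of N-346 (2.61, adjusted p = 0.045). Without that microglial library neural cells were also above mural cells (1.44, adjusted p = 0.045). The mural call did not pass without the mural library Mu-340 (2.0, adjusted p = 0.053) or Mu-343 (1.97, adjusted p = 0.056), nor without the brain of N-340 (1.97, adjusted p = 0.085) or that of N-343 (2.31, adjusted p = 0.051). The microglial call was lost without the microglial library Mi-346 (−1.02, adjusted p = 0.15), the brain of N-343 (−1.91, adjusted p = 0.078) or that of N-346 (−1.17, adjusted p = 0.17). Single cells were sparse: a transcript was found in 13.8% of neural cells (17 of 123), 6.67% of mural cells (14 of 210), 1.78% of endothelial cells and 0.781% of microglia, or 3.25%, 1.43%, 0% and 0% after thinning. In mural cells 24.1 of the 46.1 transcripts came from 1 cell. The neural difference of the single-cell sums was 3.02 ± 0.55 (edgeR adjusted p = 7.6e-06) and passed in all 6 alternatives that could be fitted. The mural call of the single-cell sums (2.21, edgeR adjusted p = 0.0018) was lost with DESeq2 (1.81, adjusted p = 0.41), and that of microglia (−4.0, adjusted p = 0.0011) without plate 2 (−2.20, adjusted p = 0.99). Without plate 2 the endothelial difference of −1.24 passed (−5.50, adjusted p = 0.031).

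Igfbpl1 (ENSMUSG00000035551, chr4:45809468-45826923), which shares a domain with the binding proteins, was, like Igfbp5, highest in neural cells. It read 13281, 12600.3 and 14447 normalized counts in neural libraries, and 262, 36.9 and 501 in endothelial libraries. Mural cells read 33.2, 204 and 80.8, and microglia 177, 123 and 89.4. The neural libraries lay above all others and held 96.4% of the summed means, and the other 3 populations overlapped.

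The neural difference of Igfbpl1 was 6.79 ± 0.70 (limma adjusted p = 1.1e-05), and the neural over the endothelial level 6.29 (adjusted p = 0.00011). Mural cells (−2.99, adjusted p = 0.0060) and microglia (−2.19, adjusted p = 0.026) were lower than the mean of the other 3, and endothelial cells did not pass (−1.60, adjusted p = 0.090). The microglial call did not pass without the microglial library Mi-343 (−2.18, adjusted p = 0.077) or Mi-346 (−1.95, adjusted p = 0.10), nor without the brain of N-340 (−2.55, adjusted p = 0.083) or that of N-346 (−1.68, adjusted p = 0.22). The endothelial one passed without the endothelial library Ec-346 (−2.38, adjusted p = 0.027). The mural call was lost without the brain of N-340 (−2.17, adjusted p = 0.13) or that of N-346 (−2.78, adjusted p = 0.068). In the libraries that are not neural, the young neuron list summed to at most 5261, so that neuronal transcripts were found there too, and their part in the low Igfbpl1 values was not tested. In single cells Igfbpl1 was found in 79 of 123 neural cells, or 64.2% (exact 95% interval 55.1 to 72.7), in 4.29% of mural cells, 2.22% of endothelial cells and 0 of 128 microglia. After thinning the neural share was 29.3%. The neural plates held 363, 386 and 175 CPM, a difference of 6.98 ± 0.36 (edgeR adjusted p = 2.4e-23). Against the floor of 3 transcripts over all microglia the neural level of 355 CPM was at least 162-fold higher.

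Igfbp6 (ENSMUSG00000023046, chr15:102144362-102149511), a binding protein that prefers IGF2, was low in every library. It read 74.4, 0 and 27.1 normalized counts in endothelial libraries, 0, 0 and 74.2 in mural libraries, 21.4, 49.8 and 21.4 in microglia and 1.34, 2.77 and 2.11 in neural libraries. No population differed from the mean of the others (limma adjusted p from 0.20 to 0.67) and no neighbours differed. The microglial difference of 2.43 passed only without the mural library Mu-346 (3.12, adjusted p = 0.043), when microglia were also above mural cells (4.88, adjusted p = 0.028). In single cells 2 transcripts were found, in 2 of 128 microglia.

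**Figure D3:**
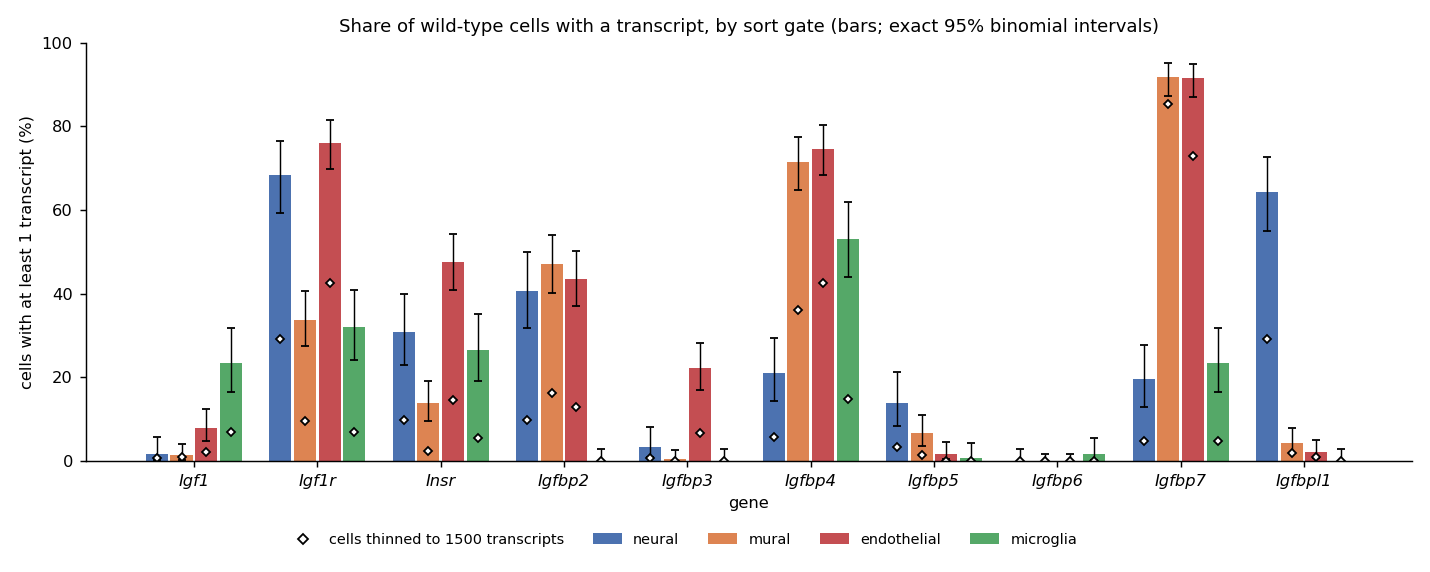
Share of wild-type cells with at least 1 transcript of each gene (y axis, percent), by sort gate, with exact 95% binomial intervals and, as diamonds, the share after thinning each cell to 1500 transcripts. Igfbp7 was found in 91.9% of mural and 91.6% of endothelial cells, Igfbpl1 in 64.2% of neural cells, and Igfbp2, Igfbp3 and Igfbpl1 in 0 of 128 microglia.

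Summed by plate and gate, the single cells gave a test for 8 of the 10 genes, since Igfbp3 and Igfbp6 did not pass the filter on low counts, which asks for a minimum level in at least 3 of the 12 sums. Of the 8, 5 were higher in the endothelial gate, 4 in the neural gate, 4 in the mural gate and 1 in the microglial gate, where 16.4%, 22.5%, 13.5% and 22.2% of 9281 genes were higher. In the microglial gate 5 were lower, with 21.2% of all genes, in the neural gate 3, in the mural gate 2 and in the endothelial gate 0, with 17.3%, 8.30% and 6.96% of all genes. The bulk and single-cell differences of the 8 genes are plotted side by side. Of their 32 differences, 23 had the same call in both data sets, 9 were called in 1 of them, and none in opposite directions. The share of all genes with the same call is not given here, so that this count is a description only. Called in the bulk libraries alone were Igf1 in mural cells (−5.81 against −2.34), Insr in neural cells (1.66 against −0.02) and microglia (−1.75 against −0.55), Igfbp4 in microglia (−1.06 against −0.10), Igfbp5 in endothelial cells (−4.42 against −1.24) and Igfbpl1 in mural cells (−2.99 against 0.73). Called in single cells alone were Igf1 in neural cells (−3.03 in bulk against −2.67), Igfbp2 in neural cells (0.92 against 2.40) and Igfbp4 in mural cells (0.38 against 1.0). Microglia held no transcript of Igfbp2 or Igfbpl1, which lowers the mean that the other gates are compared with. The neural Igfbp2 level of 83.9 CPM was below the 122 CPM of mural and 104 CPM of endothelial cells. The sign differed for Insr in neural and Igfbpl1 in mural cells, and the difference between the data sets was not tested. Igfbp7 in endothelial cells was at 7.63 in bulk and 3.65 in single cells, and called in both.

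**Figure D4:**
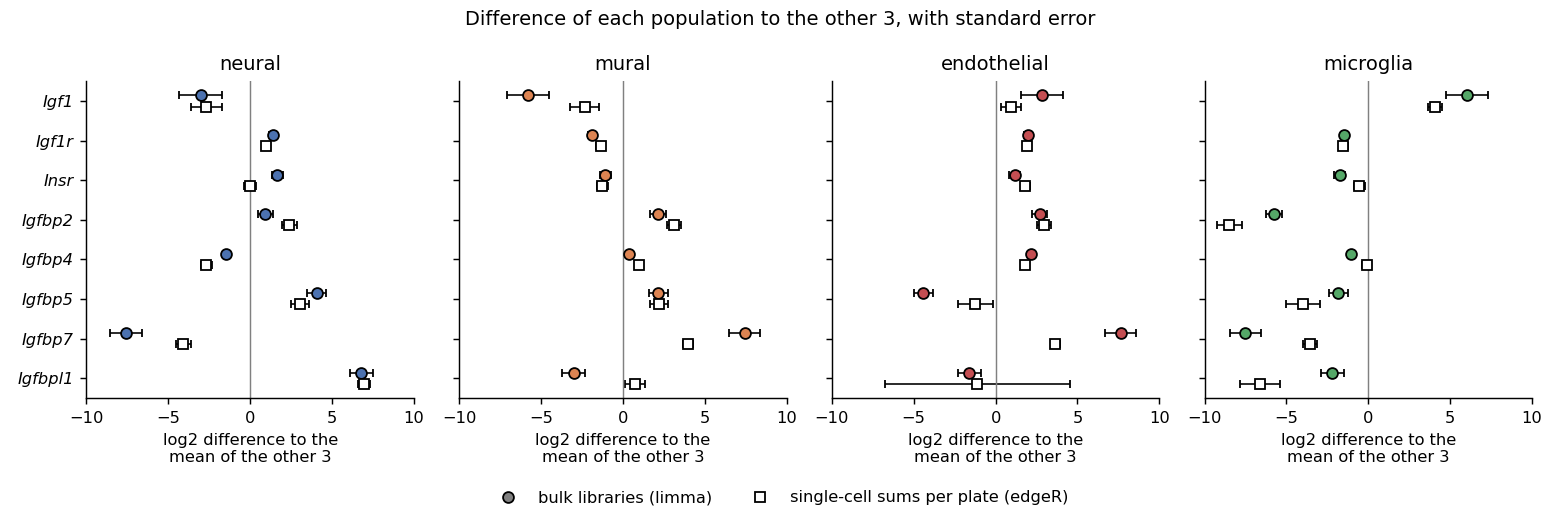
Log2 difference of each population to the mean of the other 3 (x axis, with standard error) for the 8 genes tested in both data sets. Filled circles are bulk libraries and open squares single-cell sums per plate. Igfbpl1 in neural cells was at 6.79 in bulk and 6.98 in single cells, and Insr in neural cells at 1.66 and −0.02.

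The number of binding protein genes found was also counted per cell. It includes Igfbp7, whose transcripts in neural cells and microglia are not read as expression here. At least 2 of the 7 binding protein genes, Igfbpl1 included, had a transcript in 79.6% of endothelial cells, 79.0% of mural cells, 51.2% of neural cells and 16.4% of microglia. After thinning to 1500 transcripts these shares were 42.7%, 45.7%, 5.69% and 1.56%. None of the 7 was found in 38.3% of microglia, 11.4% of neural cells, 5.33% of endothelial cells and 3.81% of mural cells, or 82.0%, 52.8%, 15.6% and 11% after thinning.

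The neural gate holds progenitors and neurons, and the genes were compared between cells with more transcripts of 8 young neuron genes and cells with more of 8 progenitor genes. None of the 10 genes is on either list. This gave 79 neuron-side and 42 progenitor-side cells, with 2 cells on neither side and 16 of 123 cells near the division, and median depths of 7717 and 7918 transcripts. The progenitor list is not particular to neural cells, with 1939 CPM in the neural gate, 2514 in the mural and 1813 in the endothelial gate. The young neuron list summed to 3690, 141 and 120 CPM there. Whether other cells in the neural gate fell on the progenitor side was not tested. Of the 10 genes, 4 passed the filter on low counts. On the neuron side 1 was higher and 1 lower, where 10.1% of 2572 genes were higher and 7.85% lower.

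Igfbpl1 held 465, 479 and 408 CPM in neuron-side cells of plates 1, 2 and 3, and 190.1, 139 and 0 in progenitor-side cells. Igfbp5 went the other way, with 14, 6.51 and 0 CPM in neuron-side and 116, 113 and 100.1 in progenitor-side cells. Neither gene overlapped between the sides. The log2 difference of neuron-side to progenitor-side cells was 1.67 ± 0.38 for Igfbpl1 (edgeR adjusted p = 0.0060) and −3.61 ± 0.54 for Igfbp5 (adjusted p = 0.00028). Igfbpl1 was found in 65 of 79 neuron-side cells (82.3%) and 14 of 42 progenitor-side cells (33.3%), and Igfbp5 in 3 of 79 (3.80%) and 14 of 42 (33.3%). After thinning the Igfbpl1 shares were 38.0% and 14.3%, and those of Igfbp5 0% and 9.52%.

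Igf1r held 283, 189 and 229 CPM in neuron-side cells and 251, 226 and 361 in progenitor-side cells, and Igfbp2 76.9, 68.3 and 76.4 against 91.9, 165 and 0. Both genes overlapped between the sides, and their differences of −0.37 ± 0.33 and −0.59 ± 0.48 did not pass (edgeR adjusted p = 0.51 and 0.45). With 2 plates, the Igfbp5 call did not pass without plate 2 (−3.40, adjusted p = 0.13), nor the Igfbpl1 call without plate 1 (2.24, adjusted p = 0.063) or plate 2 (1.73, adjusted p = 0.27).

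**Figure D5:**
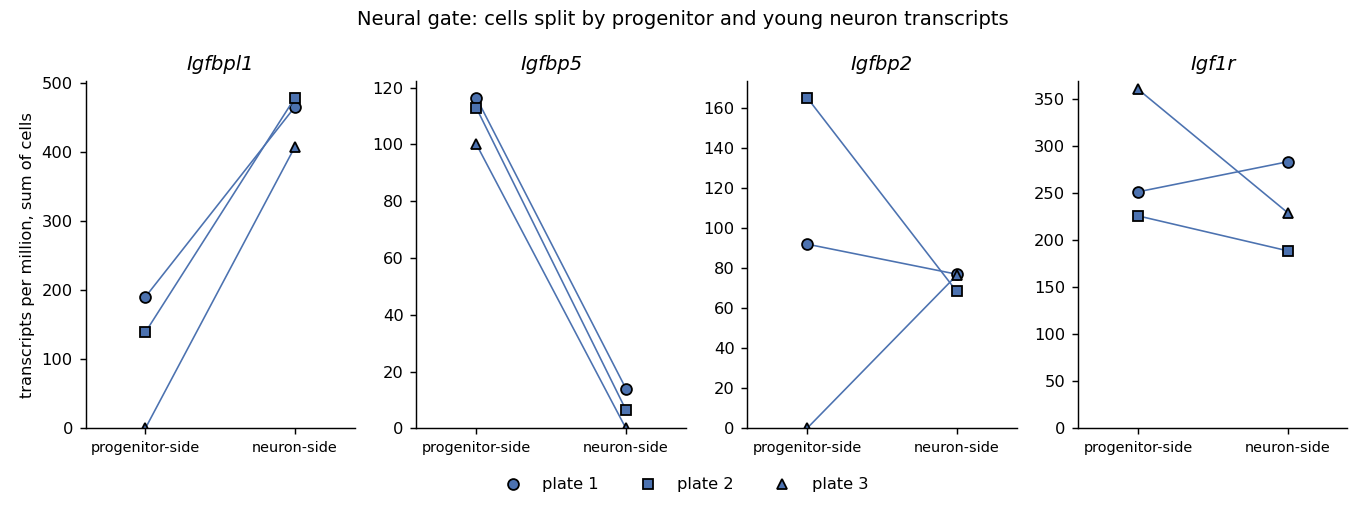
Level in CPM (y axis, from 0) of 4 genes in the sums of progenitor-side and neuron-side cells of the neural gate, with a line for each of the 3 plates. Igfbpl1 was higher and Igfbp5 lower on the neuron side in all 3 plates, and Igfbp2 and Igf1r overlapped between the sides.

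The genes whose bulk pattern was most like that of a member were taken by the Pearson correlation of log2(normalized count + 1) over the 12 libraries, as a description. Libraries of 1 population share their cells, so that these are not 12 independent points. Igfbpl1 was closest to Neurod2 (r = 0.99), a transcription factor of cortical neurons, Igfbp7 to Foxc1 (r = 0.99), a factor of mural cells and meninges, and Igfbp5 to Lsamp (r = 0.99), an adhesion protein of neurons. Igf1r was closest to Spock2 (r = 0.98) and Igfbp4 to Gm49265 (r = 0.98). Insr was closest to Jak2 (r = 0.96), Igfbp3 to Adamtsl2 (r = 0.97), Igf1 to Apobec3 (r = 0.96) and Igfbp6 to Gm38241 (r = 0.95). Among the members, the receptors Igf1r and Insr had the highest r, of 0.90. Next came Igfbp4 and Igfbp7 (0.87), Igf1 and Igfbp6 (0.74) and Igfbp2 and Igfbp7 (0.71). Igfbp6 was low in every library, so that its r with Igf1 rests on few reads.

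Of the other genes of the pathway, a list of 37, 35 were tested in the bulk libraries. In neural cells 22 of 35 were higher and 4 lower, with a median difference of 1.5, against 32.9% and 31.2% of all genes. Mural cells had 11 higher and 10 lower (19.3% and 22.7% of all genes), endothelial cells 8 higher and 16 lower (19.7% and 22.4%), and microglia 4 higher and 18 lower (23.4% and 22.3%). In the single-cell sums, which share 1 library chemistry, 7 of 23 tested were higher and 5 lower in neural cells, with a median of 0.27, where 22.5% and 17.3% of all genes were. The mural gate had 10 higher and 2 lower (13.5% and 8.30%), the endothelial gate 7 and 4 (16.4% and 6.96%) and the microglial gate 5 and 9 (22.2% and 21.2%).

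The second ligand, Igf2, was highest in mural cells. It read 2623, 3375 and 5076 normalized counts in mural libraries, 152, 385 and 279 in endothelial libraries, 6.68, 6.09 and 12.7 in neural libraries and 0 in all 3 microglial libraries. The mural difference was 8.07 (limma adjusted p = 3.9e-07) and the endothelial one 3.0 (adjusted p = 0.00037), and the mural mean was at least 1016-fold above the floor of 3 reads per microglial library. Fibroblast markers moved with it: the sum of 6 was 8873 to 11803 in mural libraries and at most 269.8 elsewhere, mostly Col1a2 and Col3a1, while Pdgfra stayed at or under 0.939 and Lum between 0 and 138; the part of such cells was not tested. In single cells Igf2 held 7019 CPM in mural cells, with a transcript in 94.3%. Endothelial cells came next, with 476 CPM, a transcript in 58.7% of cells (30.7% after thinning) and a difference of 0.89 (edgeR adjusted p = 0.029). It was also found in 57.0% of microglia at 84.7 CPM and 43.9% of neural cells at 92.2 CPM, or 12.5% and 19.5% after thinning. The bulk libraries held no read of it in microglia and at most 12.7 normalized counts in neural cells, and these shares are not read as expression here. Ins2, which lies next to Igf2, read 35.8 to 131 in mural libraries and 0 elsewhere, and whether the 2 genes share reads was not tested.

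The receptor Igf2r, which takes up and clears IGF2, was also highest in mural cells, at 6808, 5913 and 6733 normalized counts, against 39.0 to 112 in microglia (3.09 in mural cells, limma adjusted p = 2.9e-05, and −5.55 in microglia, adjusted p = 1.6e-07). Stc1, an inhibitor of the proteases that cut binding proteins, was higher in mural cells by 6.94 (adjusted p = 7.4e-05) and had no read in microglia. One such protease, Pappa2, was higher in the neural bulk libraries (7.10, adjusted p = 0.00020), while single cells held 1 transcript of it in neural cells, 2 in endothelial cells and 2 in microglia. Htra1, another protease, was higher in endothelial cells (4.38, adjusted p = 0.0034) and lower in microglia (−5.93, adjusted p = 0.00037). In neural cells Stc1 was called in opposite directions by the 2 data sets. It was higher in the bulk libraries (2.35, limma adjusted p = 0.025) and lower in the single-cell sums (−2.29, edgeR adjusted p = 0.041).

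Of 7 adaptors that carry the signal inside cells, 4 were higher and 1 lower in neural cells (32.9% and 31.2% of all genes), 3 higher and 2 lower in mural cells (19.3% and 22.7%), 2 higher and 3 lower in endothelial cells (19.7% and 22.4%), and 2 higher and 3 lower in microglia (23.4% and 22.3%). Irs1 read 0, 76.7 and 0 normalized counts in endothelial libraries and 2659, 2349 and 2842 in neural libraries, and Irs2 1.77, 21.3 and 42.2 against 2979, 3012 and 3272. Both were higher in neural cells (6.64 and 3.76, limma adjusted p = 0.0020 and 0.00037) and lower in endothelial cells (−5.70 and −6.63, adjusted p = 0.0088 and 1.7e-05), the population with the highest mean of Igf1r. Irs2 was also higher in microglia (1.91, adjusted p = 0.029). In single cells Irs2 was highest in microglia, at 97.7, 90.1 and 236 CPM on the 3 plates, against 95.2, 71.0 and 21.9 in neural cells, 52.2, 67.3 and 110 in mural cells and at most 4.17 in endothelial cells. Its single-cell difference was 2.32 in microglia, 1.29 in neural, 0.99 in mural and −4.60 in endothelial cells (edgeR adjusted p from 7.8e-12 to 0.020). Irs1 held 2 transcripts in neural cells, 2 in mural cells and none in the other gates, and was not tested there. In the bulk libraries Irs4 was higher in neural cells (7.14, limma adjusted p = 8.4e-08), with 3 neural transcripts and 1 mural in single cells, as was the transcription factor Foxo6 (8.86, adjusted p = 2.5e-05), which was also called in the neural gate (5.74, edgeR adjusted p = 7.1e-11). Grb10, an adaptor that dampens the receptors, was higher in mural (2.54, limma adjusted p = 0.00019) and endothelial cells (1.56, adjusted p = 0.0044) and lower in microglia (−4.92, adjusted p = 7.8e-07). On the neuron side of the neural gate Grb10 was lower by a difference of −1.91 (edgeR adjusted p = 0.00055).

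Of the RNA-binding proteins that hold Igf2 mRNA, Igf2bp2 was higher in neural cells (2.32, limma adjusted p = 2.1e-06), Igf2bp1 in endothelial cells (0.86, adjusted p = 0.0039) and Igf2bp3 in microglia (0.81, adjusted p = 0.0013). Igf2bp1 was lower in microglia (−1.37, adjusted p = 0.00014), as was Igf2bp2 (−1.5, adjusted p = 9.3e-05). Igf2bp3 read 3744, 3263 and 3860 normalized counts in microglia and 1449, 2067 and 1967 in endothelial cells, which did not overlap. In single cells Igf2bp2 was higher in neural cells too (2.10, edgeR adjusted p = 1.4e-06). There Igf2bp1 was higher in endothelial cells (0.90, adjusted p = 0.0019) and also in mural cells (0.82, adjusted p = 0.0045). The microglial difference of Igf2bp3 did not pass in single cells (0.50, adjusted p = 0.14).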

How the data were processed

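Bulk RNA-seq of 12 libraries and single-cell RNA-seq of wild-type E14.5 brain were used. For the bulk libraries the authors deposited a table of normalized counts per gene (unit: signal, counts divided by a size factor per library). The submitters' notes name BWA 0.6.2-r126, STAR, featureCounts, DESeq2 and mm10, without roles. Dividing by the value of 1 read gave whole reads within 0.01 for 100% of 124078 values of up to 100 reads, and these reads gave the depth and served edgeR and DESeq2 as an alternative that needs counts. For single cells the authors deposited expected counts of transcripts per gene and well, corrected for the 4096 possible molecular identifiers, made with mCEL-Seq2. They were summed per plate and gate and rounded to whole counts. All per-sample columns were mapped.

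Bulk values were tested as log2(normalized count + 1) by limma 3.58.1 with a trend, over genes with a mean of at least 10, and single-cell sums by the quasi-likelihood test of edgeR 4.0.16 with TMM and its default filter on low counts, both two-sided with Benjamini-Hochberg adjustment over all genes tested and a threshold of 0.05. R 4.3.3, DESeq2 1.42.0 and, under Python 3.11.15, pandas 2.3.3, matplotlib 3.10.9, scipy 1.17.1 and numpy 2.4.6 were also used, and both tests were tested on simulated data. Libraries of 1 brain number come from the same brain, and gates of 1 plate were processed together, so that these numbers pair the samples. Deviations of same-numbered libraries from the group means correlated from −0.054 to 0.0801 over 18 pairs of bulk libraries and from −0.0422 to 0.107 over 18 pairs of plate sums. Whether each plate holds its own animals is not given in the sources used here, so that p-values of plate sums measure the spread between plates. Exact binomial intervals (95%) and the floor of 3 counts cover counting error only.

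All 10 genes were named in every comparison. From the pathway list, Igf2, Igf2r, 3 Igf2bp genes, Irs1, Irs2, Irs4 and Grb10 were always named, with the 3 called genes of the largest difference per population. The members and all lists were chosen with earlier results of these data known. Positions and exon lengths are from GENCODE on GRCm38, promoters from RefSeq. Alternatives were the pseudocount, the filter, quantile normalization, the other tools, the replicate block, thinning of cells and leaving out each library, brain or plate. The knockout plates were left out, since they carry no gate. The results of some genes are not given.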

Additional observations from a re-analysis of the deposited data

Results flagged for a closer look

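A further gate, wells sorted as PDGFRβ medium or low, enters no comparison above, and it held transcripts of 6 of the 10 genes above the limit of 3 counts that a 0 leaves possible (18.3 CPM in these cells). Of its 25 wells 23 were kept, from plates 1 and 2. In their sum, Igfbp7 was at 464 CPM, Igfbp5 at 274 CPM, Igf1r at 183 CPM, Igfbp2 at 79.2 CPM, Igfbpl1 at 73.1 CPM and Igfbp4 at 36.6 CPM. Igfbp5 was found in 5 of 23 cells and 1 cell held 13.0 of its 45.1 transcripts. Igfbp7 was found in 11 of 23 cells, with 22.1 of 76.1 transcripts in 1 cell, and Igfbpl1 in 5 of 23, with 7.01 of 12 in 1 cell. Insr had 3 transcripts in all, which is the floor, and Igf1, Igfbp3 and Igfbp6 were found in 0 of 23 cells. The floor of 3 cells is 13.0% of them and the exact 95% upper limit 14.8%, and both limit cells with a transcript and not cells that express a gene. The difference from the other gates was not tested.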

How the results depend on the processing

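Under all alternatives and leave-outs, 19 of 29 bulk population calls of the 10 genes and 7 of 10 calls between neighbours passed throughout. Of 24 single-cell calls, 19 could be fitted in every setting and 15 of these passed throughout; Igf1 had no value without plate 1 or 2, and Igfbp5 none without plate 1. Neither of the 2 calls between the sides of the neural gate passed throughout. With the replicate block 3 of 106 results of the 10 genes changed their call or sign: Igfbp5 between microglia and endothelial cells (1.94, adjusted p = 0.044), Igf1 in single mural cells (−2.29, adjusted p = 0.042), and Insr in single neural cells, at 0.00104 with the block. Few counts stand behind Igfbp6 in single cells (2 transcripts), Igfbp3 in single cells and plate 3, with 6 to 14 cells per gate; the causes of the changes below were not tested.

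The following uncalled differences changed sign. Igfbp3 in neural cells became −0.22 with a pseudocount of 10, −0.27 with quantile normalization, −0.52 with edgeR and −0.53 with DESeq2. With edgeR and DESeq2, Igfbp6 in mural cells became 0.93 and 0.93, Igf1 in mural minus neural cells 1.21 and 1.24, and Igfbp6 in endothelial cells minus microglia 0.11 and 0.13. Igfbp7 in microglia minus neural cells became −0.24 with a pseudocount of 0.5. With DESeq2 on single cells Igfbpl1 became −0.49 in mural and 0.13 in endothelial cells. Igf2bp1 in neural cells became −0.076 with quantile normalization.

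Genes lower in neural bulk libraries numbered 4106 of 13137 tested at a minimum mean of 100, against 6170 of 19765. With edgeR, 2805 genes were lower in mural and 2514 in endothelial libraries, which raised the share of higher among called genes from 46.0% to 59.9% and from 46.8% to 62.1%. Pathway genes that were lower numbered 7 in neural cells with quantile normalization, 5 in mural and 9 in endothelial cells with edgeR, and 10 in endothelial cells with DESeq2. With DESeq2 on single cells 1 of the 10 genes was lower in mural cells. Over all genes DESeq2 called 989 lower in neural, 763 higher and 235 lower in mural, 871 higher and 181 lower in endothelial cells, and 1200 higher in microglia. Between the sides of the neural gate 152 genes were higher with DESeq2, and 460 higher and 369 lower with no filter.

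With 1 library, brain or plate left out, differences ran from −0.50 to 0.82 for Igfbp3 in neural cells, −3.39 to 0.030 for Igfbp6 in mural and −0.92 to 2.68 in endothelial cells, −0.53 to 3.84 for Igfbp3 in mural cells minus microglia, −2.67 to 1.04 for Igfbp6 in endothelial cells minus microglia and −1.59 to 1.69 in mural minus neural cells. They ran from −0.21 to 0.37 for Igfbp7 in endothelial minus mural cells and −1.74 to 1.23 in microglia minus neural cells, −0.57 to 1.53 for Igfbpl1 in endothelial cells minus microglia, −0.29 to 1.26 in microglia minus mural cells and −1.75 to 0.16 in single endothelial cells, −0.79 to 0.0044 for Igf1r between the neural sides and −0.34 to 0.023 for Igf2bp3 in mural cells. Bulk counts of the 10 genes ran from 2 to 5 lower in mural, 1 to 2 lower in endothelial cells, and 0 to 2 higher and 5 to 8 lower in microglia. Single-cell counts ran from 2 to 4 higher in neural cells, 2 to 4 higher and 0 to 2 lower in mural cells, 0 to 1 lower in endothelial cells and 0 to 1 higher in microglia. Between the neural sides they ran from 0 to 1 in each direction. Pathway counts ran from 6 to 11 lower in mural, 3 to 8 higher and 10 to 16 lower in endothelial cells, and 2 to 5 higher in microglia. Over all genes, single-cell counts higher and lower ran from 759 to 2242 and 744 to 2232 in neural, 594 to 1704 and 128 to 822 in mural, 647 to 1979 and 64 to 877 in endothelial cells, 883 to 2410 and 803 to 2352 in microglia, and 30 to 542 and 22 to 502 between the neural sides.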
